A study of Mus musculus with 12 samples.

Results

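The genes described here are 33 immediate early, AP-1 and stress-response genes, followed in natural killer (NK) cells, the innate lymphocytes that kill infected or transformed cells. They were taken by name, matched by mouse Ensembl gene ID to an expression table of 37991 genes, and read in all 12 libraries. All 33 were found, and all 33 passed the filter for testing, which asked for 3 or more libraries at an FPKM of at least 1. FPKM, the unit of the deposited values, scales fragments to gene length and library size, so it allows levels to be set side by side between genes.

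Immediate early genes are transcribed within minutes of a stimulus without new protein synthesis, through factors already present in the cell, and their RNAs are short-lived. FOS and JUN proteins pair to form AP-1, which binds DNA and drives genes of activation, growth and stress. Several other members, among them Dusp1, Zfp36, Nfkbia and Tnfaip3, encode proteins that damp the same response. In lymphocytes these genes answer receptor engagement and cytokines, and they are also known to respond to tissue dissociation, temperature and cell handling.

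Cells with the surface phenotype NK1.1+CD49b+ were collected by sorting from marrow of C57Bl/6 mice (the treatment text writes CD9b, read here as CD49b) and went at once into RLT, a lysis buffer; no culture or stimulation is listed. There were 3 libraries in each of 4 groups. Mice of group Id2KO were Ncr1Cre Id2F/F, those of Tcf1KO were Ncr1Cre Tcf7F/F, and those of DKO carried Ncr1Cre with both floxed genes. Group Ctrl came from floxed mice without Cre, given as Id2F/F in one place and as Id2F/F or Id2F/F Tcf7F/F in another. Comparisons with Ctrl therefore also hold the presence of Cre. Ncr1Cre drives Cre wherever Ncr1 (NKp46), an activating receptor of NK cells, is expressed, so other cells of the mouse keep the floxed genes. Id2 encodes an inhibitor of E protein transcription factors and Tcf7 encodes TCF-1, a factor of lymphoid development. Ages and the number of animals behind a library are not given in the sources used here, and p-values measure the spread between these libraries, which may be technical.

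Library sizes, inferred from the FPKM values with GENCODE exon lengths, ran from 13977524 reads in Ctrl replicate 2 to 20209587 in Tcf1KO replicate 3. Reads recovered from the steps between values summed to 9691872 and 13617191 in the same 2 libraries. Id2 was at 124, 163 and 170.0 FPKM in Ctrl, at 17.8, 17.1 and 19.2 in Id2KO, at 114, 102 and 126 in Tcf1KO and at 48.8, 41.2 and 36.8 in DKO, lower wherever it was targeted. Tcf7 was at 37.7, 38.6 and 46.5 FPKM in Ctrl, at 81.5, 92.1 and 80.9 in Id2KO, at 29.6, 37.3 and 38.0 in Tcf1KO and at 53.9, 60.04 and 73.3 in DKO. Tcf7 in Tcf1KO did not differ from Ctrl by the test (log2 fold change -0.22 ± 0.16 (SE), limma adjusted p = 0.999), and a value for the whole gene also covers exons outside a floxed segment. The groups with targeted Tcf7 thus rest on their labels. All 10 NK markers, Ncr1, Klrb1c (NK1.1) and Itga2 (CD49b) among them, stood at 1 FPKM or more in all 12 libraries. RNA of other marrow cells was present in amounts that differed between libraries. Summed over 16 neutrophil and monocyte markers it ranged from 915.4 to 3652 FPKM in Ctrl, 61.8 to 1049 in Id2KO, 1216 to 4325 in Tcf1KO and 329.8 to 800.0 in DKO. For 10 basophil and mast cell markers the sums ranged from 167 to 632, 15.6 to 94.7, 51.3 to 754 and 56.7 to 594 FPKM in the same order, and for 10 erythroid markers from 744 to 4717, 166 to 1877, 1318 to 3407 and 438 to 2671. The 10 T cell markers summed to 352 to 415 FPKM in Ctrl, 346 to 681 in Id2KO, 791 to 1059 in Tcf1KO and 952 to 1080 in DKO, and the 10 B cell markers to 175 to 418.5 over all libraries. Of single genes, Elane and Cebpe of neutrophil precursors were at 0 in all 3 Id2KO libraries and in DKO replicate 3, Cebpe also in DKO replicate 2. Mcpt4 of mast cells was at 0 in 10 of the 12 libraries. Other genes of these lists were not at 0 there. In Id2KO, S100a8 was at 4.48, 69.4 and 331 FPKM and Cpa3 at 3.92, 4.42 and 14.3. Zeros in single genes thus do not show that a cell type was absent. In bulk RNA, fewer cells of a type and less RNA per cell cannot be told apart.

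The control regions of the genes are shown first, and their relation to the pattern across libraries was not tested. Of the 33 members, 28 had an entry in the RefSeq promoter table (GRCm38.p6), and the 250 bases before the RefSeq start of each were searched on both strands. Below are 3 genes that varied together, Fos, Dusp1 and Zfp36, and Ier3, whose pattern across libraries was unlike theirs. Capitals mark the motif named after each gene.
Fos (chr12:85473640-85473889, plus strand; 2 CRE core motifs TGACG and the TATA box TATAAA): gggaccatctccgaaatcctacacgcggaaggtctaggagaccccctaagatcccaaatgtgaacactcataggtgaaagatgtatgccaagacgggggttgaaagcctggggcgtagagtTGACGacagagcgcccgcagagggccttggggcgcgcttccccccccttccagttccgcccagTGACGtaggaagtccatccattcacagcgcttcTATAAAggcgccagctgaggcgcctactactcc
Dusp1 (chr17:26508473-26508722, minus strand; the full CRE TGACGTCA): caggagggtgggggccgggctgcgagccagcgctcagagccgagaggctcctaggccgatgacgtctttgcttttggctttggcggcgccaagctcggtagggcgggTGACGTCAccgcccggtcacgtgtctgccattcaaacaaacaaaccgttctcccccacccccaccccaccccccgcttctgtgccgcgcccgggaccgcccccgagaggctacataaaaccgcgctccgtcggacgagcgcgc
Zfp36 (chr7:28379229-28379478, minus strand; the CArG box): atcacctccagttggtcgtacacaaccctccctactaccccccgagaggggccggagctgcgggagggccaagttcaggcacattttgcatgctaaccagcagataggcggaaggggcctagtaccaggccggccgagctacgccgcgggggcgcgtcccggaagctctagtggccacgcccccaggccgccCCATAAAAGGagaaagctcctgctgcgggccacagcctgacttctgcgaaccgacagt
Ier3 (chr17:35821463-35821712, plus strand; 2 CCAAT boxes): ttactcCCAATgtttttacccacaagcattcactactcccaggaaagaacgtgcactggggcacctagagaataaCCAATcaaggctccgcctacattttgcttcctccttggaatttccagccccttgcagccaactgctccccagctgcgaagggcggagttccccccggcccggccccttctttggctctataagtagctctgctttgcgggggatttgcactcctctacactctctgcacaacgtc

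CRE is the cyclic AMP response element TGACGTCA, which CREB and ATF proteins bind. It was in 4 of the 28 members (14.3%), Btg2, Dusp1, Maff and Ppp1r15a, and in 1.55% of 32851 promoter windows of the same length. Its core TGACG, which the full element contains, was in 16 of 28 (57.1%) and in 17.8% of all windows. The kappaB motif (GGG and TTTCC, 2 bases apart), bound by NF-kB, was in 4 (14.3%, against 1.41%): Dusp5, Nfkbia, Rel and Tnfaip3. A CArG box, the site of serum response factor, was in Dusp5, Egr2 and Zfp36 (10.7%, against 1.47%). The AP-1 motif TGANTCA was in Tnfaip3 alone (3.6%, against 6.75%), and the EGR motif GCGTGGGCG in Maff alone (3.6%, against 0.54%). CCAAT was in 10 of 28 (35.7%, against 33.85%) and TATAAA in 4 (14.3%, against 12.4%). The heat shock element (GAA, TTC and GAA, each 2 bases apart) was in none of the 28, the HSP70 genes included, and in 0.47% of all windows. These are matches of letters and describe the windows only. A member was counted when any of its windows held the motif, and some members, such as Egr2, had several windows. The share over all promoters counts single windows, so the members' shares are not on the same footing and may be raised.

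In most members, single libraries of one group differed more than the 4 group means did. Within a group most were high or low in the same libraries: Ctrl replicate 3 was the highest of its group in 32 of 33 members, Id2KO replicate 3 in 30, Tcf1KO replicate 3 in 26 and DKO replicate 3 in 24. Over all 12384 genes tested, those libraries were the highest of their group in 34.1%, 24.9%, 27.8% and 39.4%. Of the 9 members that were not highest there in DKO, all 9 were highest in DKO replicate 1. The lowest library was Ctrl replicate 2 in 26 members (36.9% of all tested genes), Id2KO replicate 1 in 20 (24%), Tcf1KO replicate 2 in 27 (27.2%) and DKO replicate 2 in 30 (28.7%). Replicate 3 was the highest library in all 4 groups for 18 of 33 members, against 1.86% of all tested genes, and in at least 3 groups for 29, against 11%. The 4 that fell short of 3 groups were Fosl2, Egr1, Egr3 and Ier3. The labels number the replicates and do not say what libraries with one number share.

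**Figure D1:**
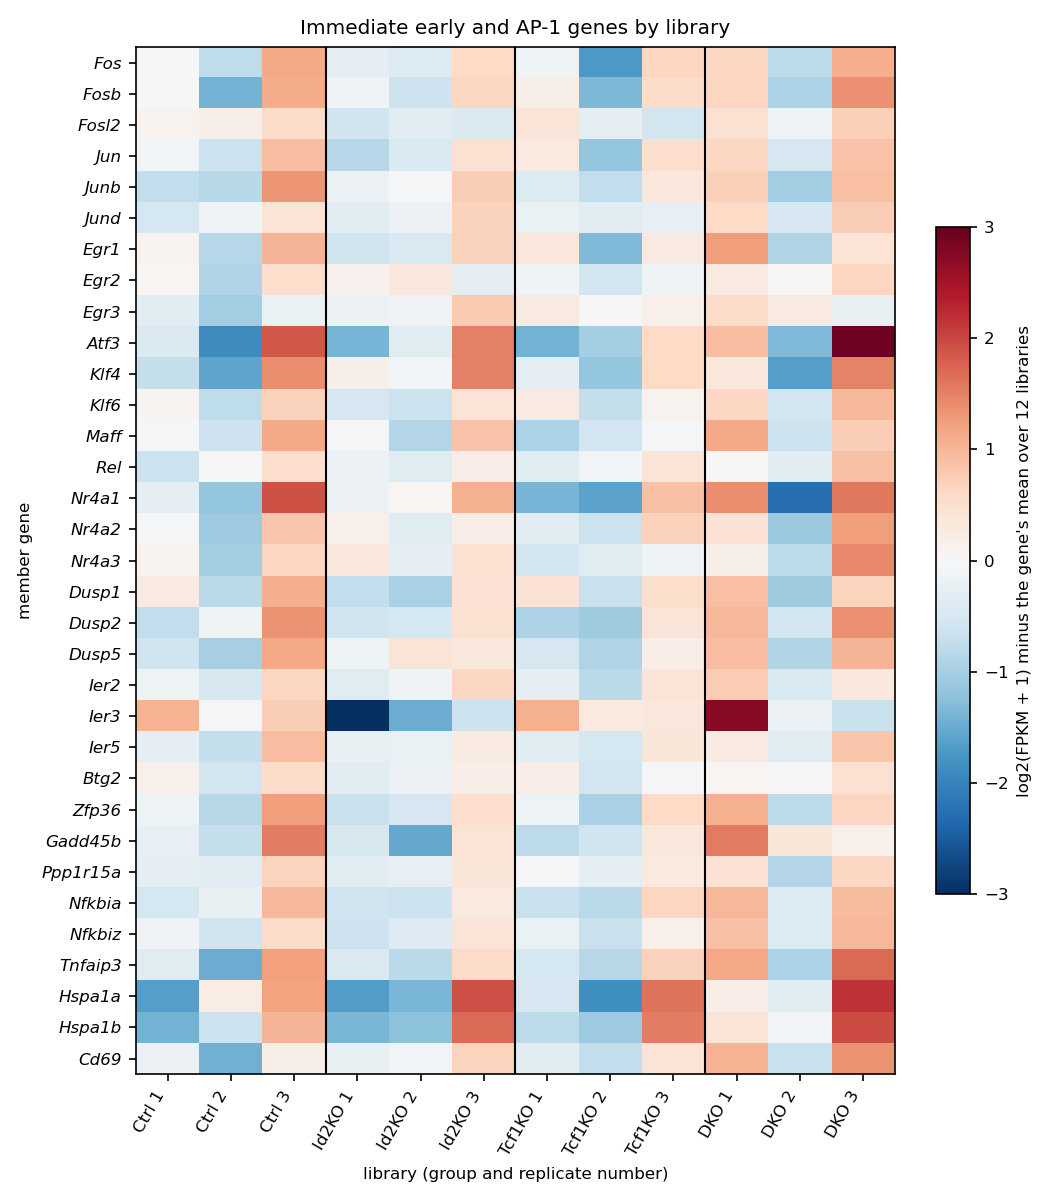
Each row is 1 of the 33 genes and each column 1 of the 12 libraries; color gives log2(FPKM + 1) minus the gene's mean over the 12 libraries, on a scale that stops at 3 in each direction, which Ier3 in Id2KO replicate 1 exceeds. The replicate 3 column of each group is mostly red and DKO replicate 1 is red as well, while Ctrl, Tcf1KO and DKO replicate 2 are mostly blue.

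Averaged over the 33 genes, log2(FPKM + 1) was 4.29, 3.81 and 5.49 in Ctrl, at 4.05, 4.09 and 5.11 in Id2KO, at 4.28, 3.77 and 4.94 in Tcf1KO and at 5.31, 3.92 and 5.53 in DKO. Every group held 1 or 2 libraries at about 4 and 1 or 2 at about 5, so the groups overlapped throughout. The highest library of a group exceeded the lowest by a median of 3.81-fold in Ctrl, 2.16-fold in Id2KO, 2.33-fold in Tcf1KO and 3.83-fold in DKO. In Ctrl this fold ran from 1.38 for Fosl2 to 46.8 for Atf3, and in DKO from 1.36 for Btg2 to 36.8 for Atf3. Sums of neutrophil and monocyte markers did not follow one pattern beside these means: they were 2178, 3652 and 915.4 FPKM in Ctrl replicates 1 to 3, 61.8, 192.5 and 1049 in Id2KO, at 4325, 1973 and 1216 in Tcf1KO, and at 800.0, 329.8 and 528.1 in DKO. The library with the highest member mean thus had the lowest such sum in Ctrl and Tcf1KO, the highest in Id2KO and the middle one in DKO. The part of these cells in the members' spread was not tested.

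**Figure D2:**
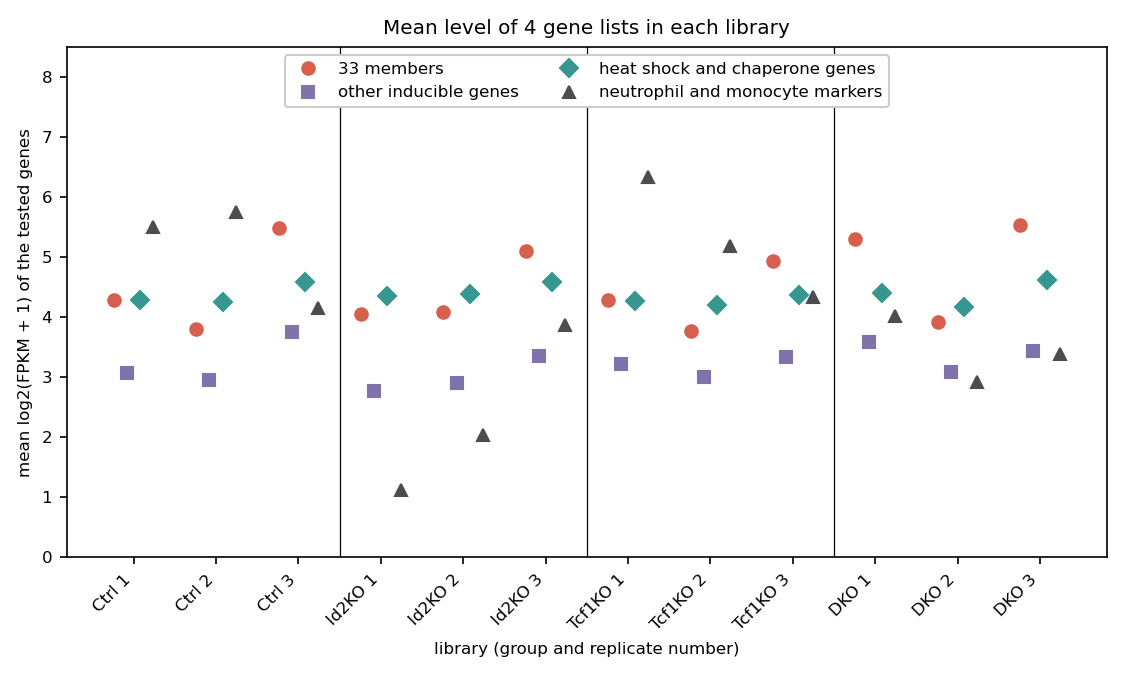
Points give the mean log2(FPKM + 1) of the tested genes of 4 lists in each of the 12 libraries: the 33 members, other inducible genes, heat shock and chaperone genes, and neutrophil and monocyte markers. The member means lie between 3.77 (Tcf1KO replicate 2) and 5.53 (DKO replicate 3), and the marker means differ between libraries in another order.

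On the log2 scale the SD between libraries of a group, pooled over the groups, had a median of 0.85 over the members, from 0.36 for Fosl2 to 1.69 for Atf3, and of 0.34 over all tested genes. The difference was as large at high levels: among genes with a mean log2(FPKM + 1) of at least 4, the median was 0.86 for 18 members and 0.26 for 1726 genes, of which 4.11% reached the members' median. Groups held a smaller share of the variation in the members than over all tested genes. A median of 13.1% of a member's sum of squares lay between the 4 groups, from 1.20% for Ppp1r15a to 55.2% for Fosl2, against 29.6% over all tested genes. The SD within groups exceeded the SD of the 4 group means in 31 of 33 members, Fosl2 and Ier3 being the other two, and in 83.1% of tested genes. The ratio of these SDs had a median of 2.73 in the members and 1.63 over all tested genes. A mean of 3 libraries varies less than a single library, so the SD within groups tends to be the larger even where groups do not differ. The comparison with all tested genes is therefore the one to read.

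**Figure D3:**
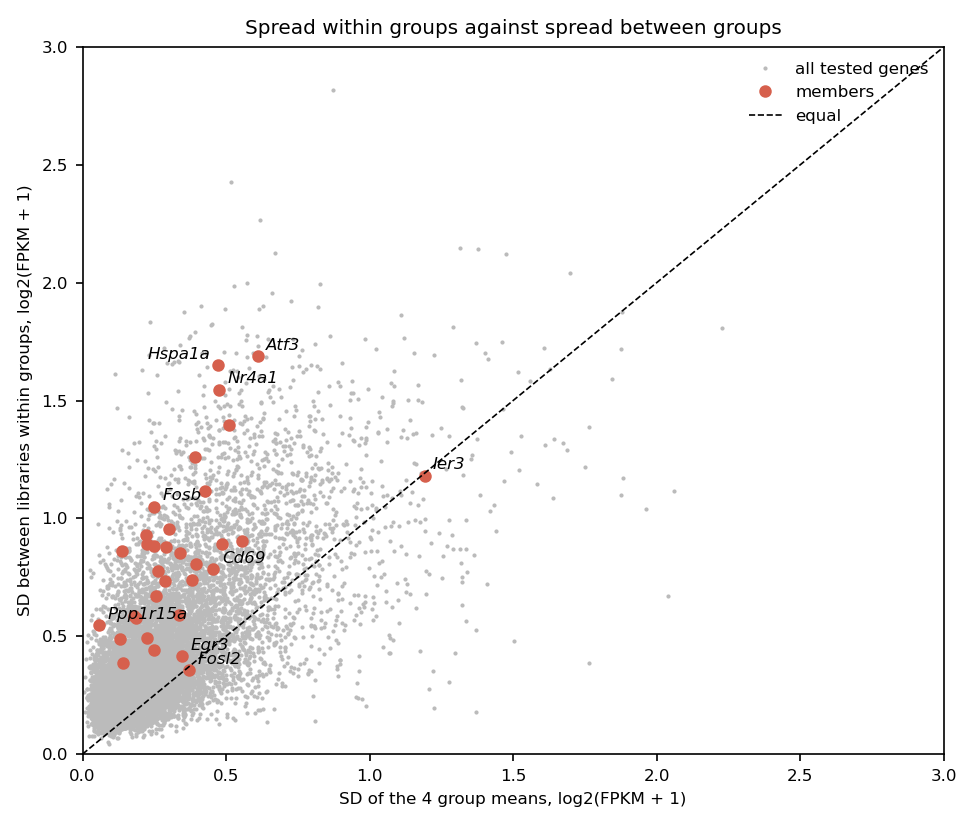
Each point is a gene, with the SD of its 4 group means on the horizontal axis and its pooled SD between libraries within groups on the vertical axis, both in log2(FPKM + 1); members are red, 1 other gene lies outside the axes, and the dashed line marks equal SDs. All members but Ier3 and Fosl2 lie above the line, with Atf3, Hspa1a and Nr4a1 highest.

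None of the 33 members differed between groups by the test, which was limma's moderated test on log2(FPKM + 1) over all 12 libraries, with p adjusted over the 12384 tested genes and a threshold of 0.05. The members called numbered 0 in Id2KO against Ctrl, where 0.178% of all tested genes were called, 0 in Tcf1KO against Ctrl (0% called), 0 in DKO against Ctrl (0.145%), 0 in DKO against Id2KO (0.121%) and 0 in DKO against Tcf1KO (0.0565%). Neither the interaction, which takes the Id2KO against Ctrl difference from the DKO against Tcf1KO difference, nor the F test over the 4 groups called a member (0% and 0.355% of all tested genes). At an unadjusted p under 0.05 there were 2, 0, 1, 2 and 0 members in the 5 comparisons, 1 in the interaction and 2 in the F test. Over all tested genes the shares at that limit were 9.71%, 4.8%, 9.44%, 10.9%, 6.73%, 5.94% and 11.3%. With voom, a limma method for counts run on the recovered reads, 0 members were called as well. Over all genes tested with voom, 33, 4, 13, 20 and 2 were called in the 5 comparisons and 2 in the interaction. Of the members, 2, 0, 0, 2 and 0 had an unadjusted p under 0.05 with voom, with 2 in the interaction. No share of all genes stands beside these unadjusted voom counts, so they are not read against a background. The comparisons share groups, since 3 use the Ctrl libraries and 3 use the DKO libraries. SEs and intervals given for single genes come from the limma fit on group alone, unless a block is named, and leave the replicate number out. With that number as a block the members' median SD within groups was 0.425 in place of 0.852, and 0 members were called.

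The members' medians against Ctrl changed sign when certain single libraries were left out, while those of DKO against Id2KO, of DKO against Tcf1KO and of the interaction changed in size and kept their sign. Median log2 fold changes were -0.07 in Id2KO against Ctrl (14 of 33 members higher), -0.19 in Tcf1KO against Ctrl (6 higher), 0.34 in DKO against Ctrl (32 higher), 0.40 in DKO against Id2KO (31 higher) and 0.53 in DKO against Tcf1KO (33 higher), each within 0.01 of 0 over all tested genes. The mean of the members varied between libraries of a group with an SD of 0.744, and members that move together do not count as separate evidence. Without Ctrl replicate 2 the DKO against Ctrl median was -0.03. Without Ctrl replicate 3 the Id2KO and Tcf1KO medians against Ctrl were 0.35 and 0.23, and without Ctrl replicate 2 they were -0.44 and -0.55. The Id2KO median was 0.05 without Id2KO replicate 1 or 2, and the Tcf1KO median was 0.05 without Tcf1KO replicate 2. DKO against Id2KO ranged from 0.13 without DKO replicate 3 to 1.02 without DKO replicate 2, and DKO against Tcf1KO from 0.24 without Tcf1KO replicate 2 to 1.09 without DKO replicate 2. The interaction median of 0.71 (31 higher) ranged from 0.16 without Ctrl replicate 3 to 1.22 without DKO replicate 2.

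**Figure D4:**
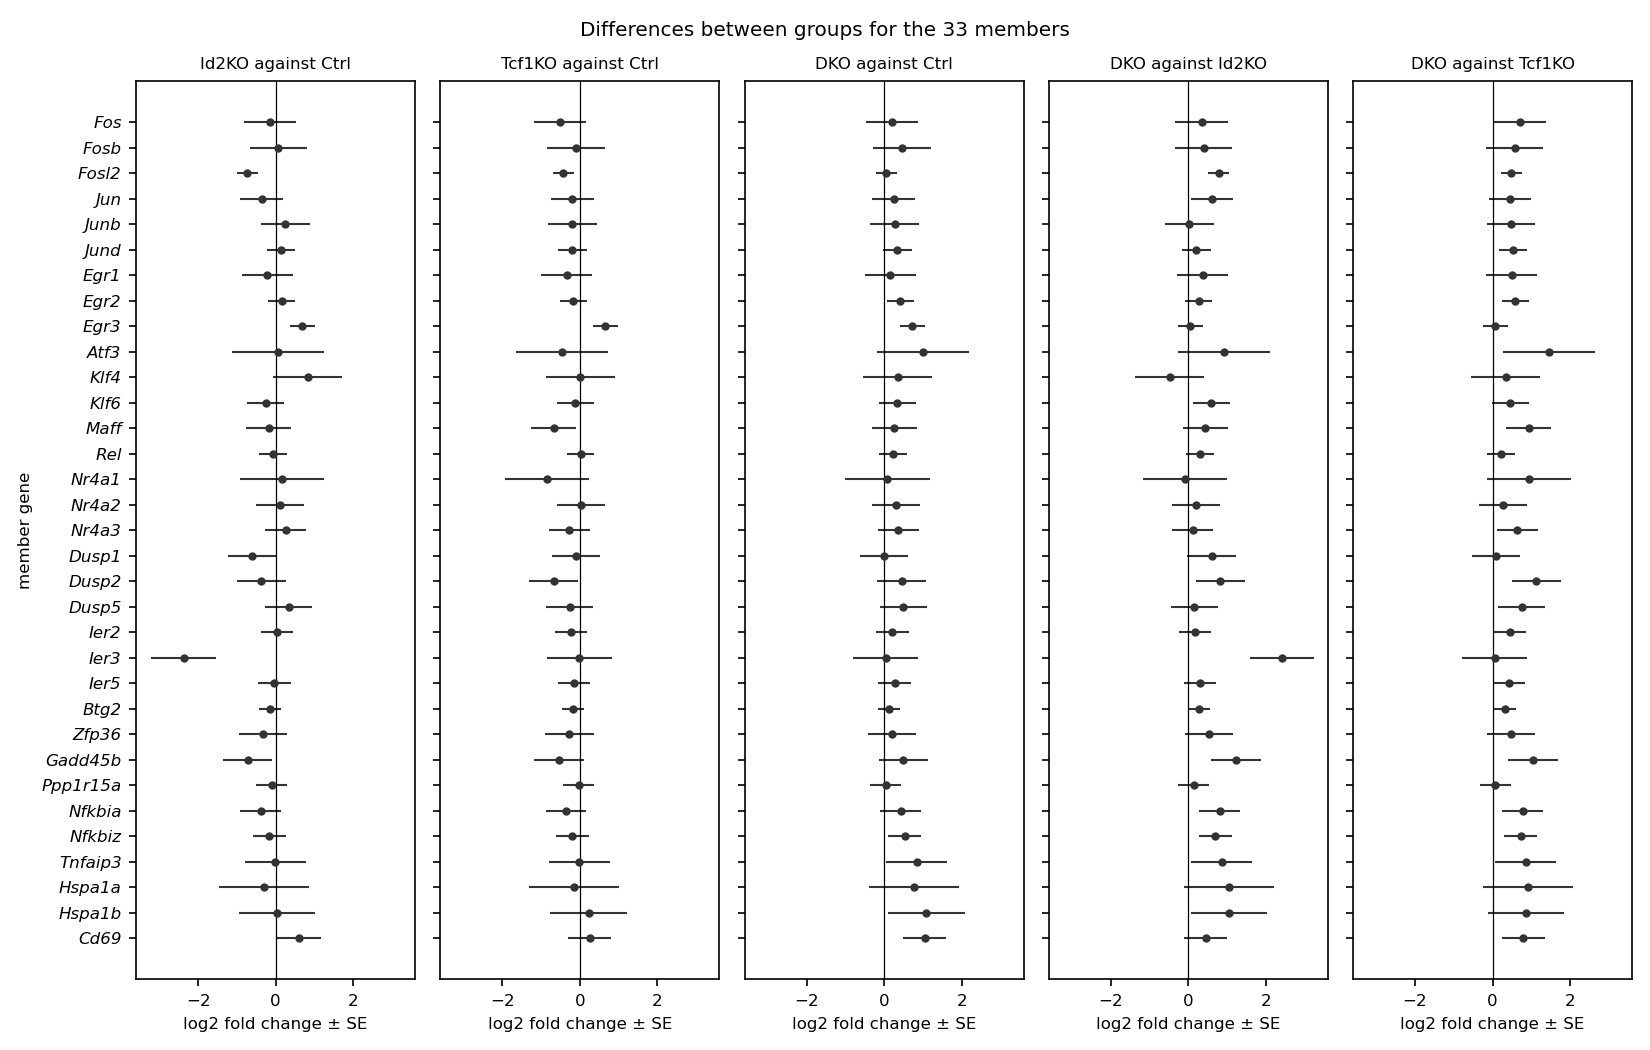
Points give log2 fold changes on the log2(FPKM + 1) scale for the 33 members in the 5 comparisons between groups, and bars give 1 SE to each side (12 libraries). None passed the adjusted threshold; Ier3 lies farthest from 0 in Id2KO against Ctrl (-2.37) and in DKO against Id2KO (2.42).

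The Fos family supplies the partners that bind JUN proteins. Fos (ENSMUSG00000021250, chromosome 12, 85473890 to 85477273, plus strand, GRCm38) stood at 114, 68.4 and 261 FPKM in Ctrl, at 96.1, 88.3 and 179 in Id2KO, at 108, 35.1 and 184 in Tcf1KO and at 181, 67.9 and 253 in DKO. Replicate 3 was highest in every group, and each group's range overlapped every other. Group means were 148 ± 101, 121 ± 50.3, 109 ± 74.6 and 167 ± 93.3 FPKM (SD, n = 3), and the log2 fold change of DKO against Ctrl was 0.20 ± 0.67 (SE; limma adjusted p = 0.958). With the replicate number as a block in the fit, its SE was 0.27 (limma adjusted p = 0.861). Without the block, its 95% interval ran from -1.29 to 1.69, which leaves room for a difference of that size in either direction. Counting error is small beside this: the lowest Fos value rested on 2852 reads. Fosb (ENSMUSG00000003545, chromosome 7, 19302696 to 19310051, minus strand) stood at 138, 50.7 and 300.4 FPKM in Ctrl, at 128, 88.9 and 212 in Id2KO, at 155, 53.8 and 202 in Tcf1KO and at 218, 71.3 and 356 in DKO. It ordered the libraries as Fos did, with replicate 2 lowest and replicate 3 highest in all 4 groups. DKO exceeded Ctrl by 0.46 ± 0.74 on the log2 scale (limma adjusted p = 0.903).

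Fosl2 (ENSMUSG00000029135, chromosome 5, 32135801 to 32157842, plus strand), which encodes FRA2, a family member of slower and more sustained expression, behaved otherwise. It stood at 15.9, 16.8 and 22.0 FPKM in Ctrl, at 9.49, 11.5 and 10.6 in Id2KO, at 19.6, 11.9 and 9.78 in Tcf1KO and at 20.6, 13.1 and 24.7 in DKO. All Id2KO libraries lay below all Ctrl libraries and below all DKO libraries, while Tcf1KO overlapped every group. The difference was -0.73 ± 0.27 in Id2KO against Ctrl (95% interval -1.33 to -0.13, limma adjusted p = 0.400) and 0.79 ± 0.27 in DKO against Id2KO (0.19 to 1.39, adjusted p = 0.311). Its interaction was 1.21 ± 0.38 (limma adjusted p = 0.831). Counting all members whose groups did not overlap, there were 3 in Id2KO against Ctrl (13.9% of all tested genes), 1 in Tcf1KO against Ctrl (10.7%), 0 in DKO against Ctrl (13.5%), 1 in DKO against Id2KO (14.7%) and 1 in DKO against Tcf1KO (12.6%). As shares of the 33, all lay below those of all genes.

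The Jun family forms the other side of AP-1. Jun (ENSMUSG00000052684, chromosome 4, 95049034 to 95052222, minus strand) stood at 88.3, 59.3 and 178 FPKM in Ctrl, at 51.2, 66.9 and 128 in Id2KO, at 113, 41.3 and 132 in Tcf1KO and at 143, 65.6 and 169 in DKO. Replicate 3 was again highest in every group. Its largest difference between groups was 0.61 ± 0.55 in DKO against Id2KO (95% interval -0.60 to 1.83, limma adjusted p = 0.739). Junb, often an antagonist of JUN, ranged from 44.1 FPKM in DKO replicate 2 to 230.1 in Ctrl replicate 3 and differed between DKO and Id2KO by 0.03 ± 0.63. Jund, the more constantly expressed member, ranged from 4.84 in Ctrl replicate 1 to 12.9 in DKO replicate 3. The GENCODE transcripts of Jund share 45.8% of their 76-base windows with the predicted gene Gm11175, so reads could have been split or lost there. For Jun and Junb such windows made up 5.0% (shared with Junos) and 4.7% (shared with Prdx2).

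EGR factors are zinc finger proteins induced by mitogen-activated protein kinase (MAPK) and calcium signals. Egr1 (ENSMUSG00000038418) ranged from 17.3 FPKM in Tcf1KO replicate 2 to 109 in DKO replicate 1, and was highest in replicate 1 rather than 3 in both Tcf1KO and DKO. Egr2 (ENSMUSG00000037868, chromosome 10, 67535475 to 67542188, plus strand) was low, at 1.67, 0.370 and 2.68 FPKM in Ctrl, at 1.80, 2.18 and 1.09 in Id2KO, at 1.33, 0.747 and 1.34 in Tcf1KO and at 2.06, 1.64 and 3.00 in DKO. Its DKO libraries lay above all Tcf1KO libraries, by 0.59 ± 0.34 on the log2 scale (limma adjusted p = 0.836). Egr3 (ENSMUSG00000033730, chromosome 14, 70077203 to 70082614, plus strand), which restrains lymphocyte activation together with Egr2, was at 1.75, 0.640 and 1.97 FPKM in Ctrl, at 1.99, 2.16 and 4.91 in Id2KO, at 3.08, 2.41 and 2.81 in Tcf1KO and at 4.06, 3.12 and 1.94 in DKO. All Id2KO and all Tcf1KO libraries lay above all Ctrl libraries, Id2KO replicate 1 by a margin of 1.99 against 1.97 FPKM, and DKO replicate 3 overlapped Ctrl. The log2 fold changes against Ctrl were 0.69 ± 0.32 in Id2KO (limma adjusted p = 0.534), 0.66 ± 0.32 in Tcf1KO (0.999) and 0.73 ± 0.32 in DKO (0.522), all against the same 3 libraries, of which Ctrl replicate 2 had 24 reads of Egr3.

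Of the other transcription factors, Atf3, a stress-induced repressor of the ATF family, varied most between libraries of a group of all 33 members. Atf3 (ENSMUSG00000026628, chromosome 1, 191170296 to 191218039, minus strand) stood at 2.74, 0.372 and 17.4 FPKM in Ctrl, at 0.928, 2.93 and 13.3 in Id2KO, at 0.882, 1.48 and 6.63 in Tcf1KO and at 8.65, 1.01 and 37.2 in DKO. Replicate 3 was highest in each group, 46.8-fold above the lowest in Ctrl, a library with 13 reads of the gene, and 36.8-fold in DKO. Against this spread the difference of 1.46 ± 1.19 between DKO and Tcf1KO had a limma adjusted p of 0.885. Klf4 (ENSMUSG00000003032, chromosome 4, 55527143 to 55532466, minus strand), a factor tied to quiescence, stood at 3.65, 1.57 and 19.1 FPKM in Ctrl, at 7.66, 6.20 and 20.9 in Id2KO, at 5.22, 2.43 and 10.6 in Tcf1KO and at 8.52, 1.44 and 20.6 in DKO. The replicate 3 values lay between 10.6 and 20.9 FPKM in all 4 groups. Its largest difference was 0.83 ± 0.89 in Id2KO against Ctrl (limma adjusted p = 0.826), and this was -0.29 without Ctrl replicate 2, Id2KO replicate 3 and DKO replicate 3, the 3 libraries of lowest array weight.

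Klf6 (ENSMUSG00000000078, chromosome 13, 5861482 to 5870394, plus strand), a broadly expressed relative, was among the most abundant members, at 140.3, 78.6 and 216 FPKM in Ctrl, at 93.1, 84.7 and 178 in Id2KO, at 161, 80.4 and 144 in Tcf1KO and at 206, 90.2 and 263 in DKO. Replicate 2 was lowest in all 4 groups, and DKO differed from Id2KO by 0.60 ± 0.48 (limma adjusted p = 0.696). Maff, a small MAF protein, ranged from 0.778 FPKM in Tcf1KO replicate 1 to 6.58 in Ctrl replicate 3. Rel, the NF-kB subunit c-Rel, was steadier, from 17.2 FPKM in Ctrl replicate 1 to 51.0 in DKO replicate 3.

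The NR4A genes encode orphan nuclear receptors that follow antigen receptor signals and restrain activated lymphocytes. Nr4a1 (ENSMUSG00000023034, chromosome 15, 101254269 to 101274795, plus strand) stood at 14.3, 7.26 and 68.7 FPKM in Ctrl, at 15.4, 18.4 and 38.3 in Id2KO, at 6.09, 5.09 and 33.4 in Tcf1KO and at 47.8, 2.87 and 54.6 in DKO. DKO held both its lowest value of all libraries and 2 of its 3 highest. The difference between DKO and Ctrl was 0.08 ± 1.09 (limma adjusted p = 0.991). Nr4a2 ranged from 3.94 FPKM in DKO replicate 2 to 24.7 in DKO replicate 3, and Nr4a3 from 1.68 in Ctrl replicate 2 to 13.8 in DKO replicate 3. Both were highest in replicate 3 in all 4 groups.

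**Figure D5:**
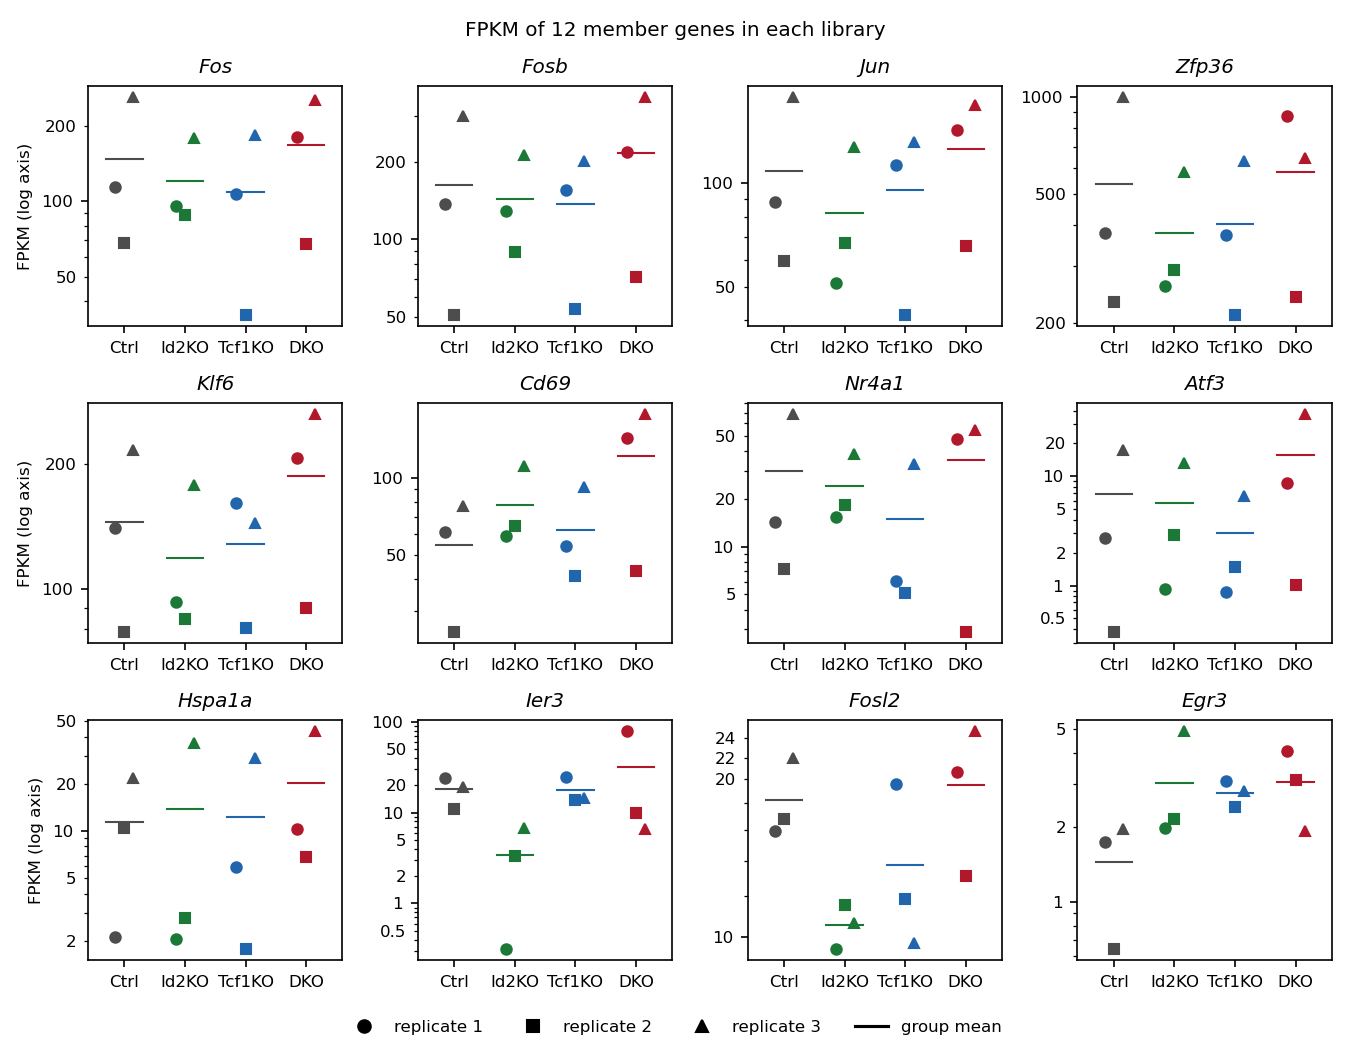
FPKM of 12 members in each library on log axes, by group, with the symbol giving the replicate number and the line the group mean. In Fos, Fosb, Jun, Cd69, Nr4a1, Atf3 and Hspa1a the triangle of replicate 3 tops every group, while Ier3 and Fosl2 show another order and Id2KO lies lowest in their group means.

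Dual specificity phosphatases remove phosphate from MAP kinases and so end the signal that induced them. Dusp1 ranged from 49.4 FPKM in DKO replicate 2 to 224 in Ctrl replicate 3, and DKO and Ctrl differed by -0.01 ± 0.62. Dusp2 (ENSMUSG00000027368, chromosome 2, 127336159 to 127338376, plus strand) stood at 32.5, 49.4 and 142 FPKM in Ctrl, at 36.3, 37.7 and 75.7 in Id2KO, at 28.7, 26.0 and 72.9 in Tcf1KO and at 111, 37.4 and 143 in DKO. Ctrl replicate 3 and DKO replicates 1 and 3 lay above all other libraries, and DKO replicate 2 lay among the low ones. DKO exceeded Tcf1KO by 1.13 ± 0.63 on the log2 scale (limma adjusted p = 0.826). Dusp5 ranged from 7.78 FPKM in Ctrl replicate 2 to 38.6 in Ctrl replicate 3, with 19.7% of its windows shared with the transcript AC137853.2.

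Among the immediate early response genes, Ier3 (ENSMUSG00000003541, chromosome 17, 35821684 to 35822923, plus strand), a regulator of survival and of ERK signalling, had the largest difference between groups of all members. It stood at 24.2, 10.9 and 19.3 FPKM in Ctrl, at 0.311, 3.30 and 6.76 in Id2KO, at 24.7, 13.8 and 14.5 in Tcf1KO and at 79.6, 9.80 and 6.63 in DKO. All Id2KO libraries lay below all Ctrl and all Tcf1KO libraries, and DKO replicate 3 overlapped Id2KO. The log2 fold change was -2.37 ± 0.83 in Id2KO against Ctrl (95% interval -4.21 to -0.53, limma adjusted p = 0.367) and 2.42 ± 0.83 in DKO against Id2KO (0.58 to 4.26, adjusted p = 0.311). Without DKO replicate 1 the DKO against Id2KO value was 1.37, and the Id2KO replicate 1 value rests on 5 reads. Basophil and mast cell marker sums stood beside Ier3 at 632, 405 and 167 FPKM in Ctrl, at 15.6, 24.1 and 94.7 in Id2KO, at 754, 287 and 51.3 in Tcf1KO and at 594, 96.3 and 56.7 in DKO. The library of each group with the highest basophil sum was also the one with the highest Ier3, and the basophil list alone was not tested as a term. Neutrophil and monocyte markers were likewise lowest in Id2KO replicates 1 and 2. With a score of the neutrophil, erythroid and basophil lists as a term in the fit, DKO against Id2KO was 1.45 (limma adjusted p = 0.452). Ier2 ranged from 22.2 FPKM in Tcf1KO replicate 2 to 68.4 in DKO replicate 1, and Ier5 from 30.3 in Ctrl replicate 2 to 96.5 in Ctrl replicate 3.

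The next 4 members act on RNA, growth or the stress response. Zfp36 (ENSMUSG00000044786, chromosome 7, 28376784 to 28380253, minus strand) encodes tristetraprolin, which sends AU-rich cytokine RNAs to decay, and was the most abundant member. It stood at 378, 232 and 998 FPKM in Ctrl, at 260.1, 291 and 585 in Id2KO, at 373, 211 and 632 in Tcf1KO and at 873, 239.6 and 647 in DKO. Within Ctrl it varied 4.31-fold, while the group means lay between 379 ± 179 FPKM in Id2KO and 587 ± 321 in DKO (SD, n = 3). DKO differed from Ctrl by 0.21 ± 0.63 (95% interval -1.17 to 1.59, limma adjusted p = 0.954). Gadd45b (ENSMUSG00000015312, chromosome 10, 80930073 to 80932204, plus strand), a stress sensor that acts on the p38 and JNK kinases, was at 6.63, 4.46 and 24.9 FPKM in Ctrl, at 5.44, 2.12 and 10.9 in Id2KO, at 4.21, 4.97 and 10.2 in Tcf1KO and at 25.5, 10.5 and 9.03 in DKO. DKO overlapped all other groups and exceeded Id2KO by 1.23 ± 0.64 (limma adjusted p = 0.520). Btg2, an antiproliferative gene, ranged from 68.6 FPKM in Tcf1KO replicate 2 to 149.6 in Ctrl replicate 3. Ppp1r15a, or GADD34, which restores translation after stress, ranged from 5.84 in DKO replicate 2 to 19.0 in Ctrl replicate 3, and its group means differed least of all members.

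Inhibitors of NF-kB are themselves NF-kB targets and close its feedback loop. Nfkbia, the gene of IkB-alpha, ranged from 27.0 FPKM in Tcf1KO replicate 2 to 96.3 in DKO replicate 1. Nfkbiz (ENSMUSG00000035356, chromosome 16, 55811375 to 55838899, minus strand), the nuclear inhibitor IkB-zeta, was at 5.87, 3.96 and 10.01 FPKM in Ctrl, at 3.86, 4.67 and 8.77 in Id2KO, at 5.54, 3.65 and 7.27 in Tcf1KO and at 12.7, 4.63 and 13.8 in DKO. As with Dusp2, DKO replicates 1 and 3 were high and replicate 2 was low, and DKO exceeded Tcf1KO by 0.73 ± 0.43 (limma adjusted p = 0.836). Tnfaip3, which encodes the ubiquitin-editing enzyme A20, ranged from 9.02 FPKM in Ctrl replicate 2 to 89.8 in DKO replicate 3. Its difference between DKO and Ctrl was 0.85 ± 0.79 (limma adjusted p = 0.808).

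Hspa1a and Hspa1b encode the inducible HSP70 chaperone and are near-identical neighbours. Hspa1a (ENSMUSG00000091971, chromosome 17, 34969190 to 34972156, minus strand) stood at 2.13, 10.4 and 21.7 FPKM in Ctrl, at 2.07, 2.79 and 36.4 in Id2KO, at 5.91, 1.77 and 29.4 in Tcf1KO and at 10.3, 6.88 and 43.5 in DKO. Hspa1b (ENSMUSG00000090877, chromosome 17, 34956436 to 34959238, minus strand) stood at 0.579, 1.69 and 7.55 FPKM in Ctrl, at 0.632, 0.774 and 12.7 in Id2KO, at 1.43, 0.956 and 11.1 in Tcf1KO and at 4.47, 2.95 and 15.3 in DKO. In both genes replicate 3 stood above the other libraries of all 4 groups, by 17.6-fold over the lowest for Hspa1a in Id2KO and 16.7-fold in Tcf1KO. Their copies share 61.5% of the windows of Hspa1a and 55.6% of those of Hspa1b with another gene, so the split between them is uncertain. DKO against Ctrl gave 0.76 ± 1.16 for Hspa1a (limma adjusted p = 0.898) and 1.09 ± 0.99 for Hspa1b (0.803).

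Cd69 (ENSMUSG00000030156, chromosome 6, 129267325 to 129275436, minus strand), an early activation antigen that holds lymphocytes in tissue, stood at 61.4, 24.8 and 77.7 FPKM in Ctrl, at 59.3, 64.6 and 111 in Id2KO, at 54.1, 41.1 and 91.6 in Tcf1KO and at 143, 43.1 and 177 in DKO. The 2 highest values were in DKO, whose replicate 2 lay among the lowest of all. The log2 fold change of DKO against Ctrl was 1.05 ± 0.56 (95% interval -0.18 to 2.28, limma adjusted p = 0.605), and without DKO replicate 2 it was 1.67 (adjusted p = 0.320). Without Ctrl replicate 2 it was 0.57 (0.864).

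Genes around the members in their pathways gave 0 calls by limma at an adjusted p under 0.05. Of 140 genes tested in 7 lists, 18, 3, 13, 19 and 12 had an unadjusted p under 0.05 in the 5 comparisons and 8 in the interaction. Over all tested genes the shares at that limit were 9.71%, 4.8%, 9.44%, 10.9%, 6.73% and 5.94%. With voom on the recovered reads the lists' counts were 20, 4, 13, 23, 13 and 9, and 1 gene, Ccl4, was called, in DKO against Id2KO. Of 28 other inducible genes tested, 5 were highest in replicate 3 in all 4 groups (Csrnp1, Irf1, Per1, Pim1 and Sik1) and 14 in at least 3. Over all tested genes the shares were 1.86% and 11%, and for short lists a count of 1 says little beside them. Csrnp1, the gene of a nuclear protein, was at 6.86, 4.41 and 35.8 FPKM in Ctrl, at 10.9, 9.68 and 24.5 in Id2KO, at 6.72, 4.54 and 14.6 in Tcf1KO and at 25.6, 15.96 and 34.3 in DKO, an order like that of Fos. Heat shock and chaperone genes had 6 of 21 highest there in all 4 groups (Hspa8, Hspa5, Hsph1, Dnaja1, Dnajb1 and Dnajb4). Dnajb1, an HSP40 partner of HSP70, was at 18.6, 19.5 and 33.9 FPKM in Ctrl, at 17.5, 19.5 and 36.8 in Id2KO, at 19.1, 14.7 and 32.3 in Tcf1KO and at 24.8, 16.8 and 42.8 in DKO. Other phosphatases and feedback genes had 4 of 15 (Dusp10, Errfi1, Zfp36l2 and Socs3), and the cytokine and activation genes 1 of 16, Ifng, the gene of interferon gamma. Ifng was at 105, 67.0 and 248 FPKM in Ctrl, at 70.8, 53.7 and 137 in Id2KO, at 79.8, 65.8 and 188 in Tcf1KO and at 213, 111 and 307 in DKO. The same held for 2 of 18 genes of the NF-kB route (Nfkbie and Birc2) and 1 of 15 AP-1 partners (Atf4). None of the 10 NK markers did. Csrnp1, Dnajb1 and Ifng were chosen after their values were seen.

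In DKO against Ctrl, with a median log2 fold change of 0.34 over the members and -0.01 over all tested genes, the lists' medians were 0.09 for other inducible genes, 0.27 for phosphatases and feedback genes, 0.40 for cytokine and activation genes, 0.06 for heat shock genes, 0.05 for the NF-kB route, 0.00 for the MAPK and SRF route and -0.01 for AP-1 partners. The genes of smallest p in each list all missed the threshold in limma's test. Batf, an AP-1 partner of lymphocytes, was at 16.6, 20.8 and 10.8 FPKM in Ctrl, at 25.7, 39.0 and 28.4 in Id2KO, at 18.4, 21.9 and 18.8 in Tcf1KO and at 18.8, 19.6 and 9.84 in DKO. Its Id2KO libraries lay above those of all other groups, by 0.93 ± 0.29 over Ctrl (limma adjusted p = 0.298), and DKO stood -0.94 ± 0.29 from Id2KO (0.248). Mapk3, the ERK1 kinase gene, was at 12.1, 13.6 and 9.80 FPKM in Ctrl and 6.81, 6.92 and 3.91 in DKO, without overlap (-0.92 ± 0.22, limma adjusted p = 0.155). Ccl4, a chemokine of activated NK cells, was at 63.5, 59.5 and 87.8 FPKM in Id2KO and 266, 158 and 181 in DKO, without overlap (1.49 ± 0.26, limma adjusted p = 0.0786, past the threshold with voom). Tigit, an inhibitory receptor gene, differed between DKO and Tcf1KO by 1.18 ± 0.24 (adjusted p = 0.251). Cyld, a deubiquitinase of the NF-kB route, differed between DKO and Ctrl by 0.61 ± 0.16 (0.223), and Spry2, an inhibitor of receptor kinase signals, between DKO and Tcf1KO by 0.77 ± 0.21 (0.369). Values for Jdp2, Map3k8, Nfkbib, Spred1, Txnip, Gadd45a, Stip1 and Hsp90ab1 had limma adjusted p of 0.224 or more in all 5 comparisons.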

How the data were processed

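RNA sequencing of 12 libraries of sorted marrow NK cells was analysed from 1 table of the whole series. The authors deposited FPKM values per Ensembl gene; per the submitters' processing notes they used Trimmomatic 0.33, TopHat2 2.1.0, HTSeq 0.6.1, edgeR without a stated version, and mm10. Strand handling is not given in the sources used here. Symbols came from GENCODE M21 for 32938 of 37991 IDs. FPKM steps gave whole reads for 23704 of 23707 genes above 0 (tolerance 0.05 reads). These reads served for the voom alternative and, with FPKM values and GENCODE exon lengths, for the library sizes.

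The 12384 genes that reached an FPKM of 1 in 3 or more libraries were fitted together on log2(FPKM + 1) with limma 3.58.1 (R 4.3.3; lmFit, contrasts.fit, eBayes with trend; group as the one term; two-sided; Benjamini-Hochberg over all tested genes; threshold 0.05). Fold changes on this scale understate those of low genes. No exact permutation test was used, since 3 libraries against 3 cannot reach the threshold. On simulated data for Id2KO against Ctrl (12384 genes, 10 runs) 28.5% of genes with a true log2 change of 1 were called and 73.6% of those with 2, with 5.2 false calls per run. The changed genes were drawn from all tested genes, with independent noise. These rates therefore do not hold for the members, which moved together and had a larger median SD within groups (0.852 against 0.340).

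The members and lists were chosen with earlier results of these data known. Members were described by role; all 12 values were given for the 8 of smallest F test p, the 6 of largest spread within groups, the 4 most abundant, Hspa1a, Hspa1b, Fos and Jun. Named list genes were the 2 of smallest p per list; others were chosen after their values were seen. Listed gene Atf7 was not used here. Alternatives varied pseudocount, filter, scaling, variance model, weights, block, library set and unit. Other software was Python 3.11.15 with numpy 2.4.6, matplotlib 3.10.9 and pandas 2.3.3.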

Additional observations from a re-analysis of the deposited data

How the results depend on the processing

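The count of members called was 0 in all 6 contrasts and in the F test under each of the 26 settings fitted, main one included, at the adjusted threshold; with unadjusted p under 0.05 it was 2 in Id2KO against Ctrl, 1 in DKO against Ctrl, 2 in DKO against Id2KO, 1 in the interaction and 2 in the F test. Of the members' medians, 149 of 150 alternatives moved by less than the SD of 0.744 between libraries. All 6 medians were themselves smaller in size than that SD, and some alternatives among the 149 changed sign. The count therefore does not show that the medians were stable. The exception was Id2KO against Ctrl without the 3 libraries of lowest array weight (Ctrl replicate 2, Id2KO replicate 3 and DKO replicate 3). It was at -0.84 in place of -0.07, and the cause was not tested. Without those 3 libraries the medians against Ctrl were -0.55 in Tcf1KO and -0.31 in DKO, and Klf4 in Id2KO against Ctrl turned from 0.83 to -0.29; the cause was not tested. Leaving out each library in turn gave ranges of -0.44 to 0.35 (Id2KO against Ctrl), -0.55 to 0.23 (Tcf1KO against Ctrl), -0.03 to 0.78 (DKO against Ctrl), 0.13 to 1.02 (DKO against Id2KO), 0.24 to 1.09 (DKO against Tcf1KO) and 0.16 to 1.22 (interaction). Over 466 alternatives for the 18 named members 1 value turned, that of Klf4, and the lowest adjusted p was 0.182, for Ier3 in DKO against Id2KO with array weights.

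By the check made over all tested genes, the numbers did not pair the samples. Its 18 correlations of same-numbered libraries' deviations ran from -0.14 to 0.27. Of these, 6 of 18 were above 0.1, although 9 of 12 libraries correlated best with their own number. The check cannot decide whether the numbers pair the samples for the members, which are few among those genes. With the replicate number as a block, 0 members were called, with 3, 0, 4, 9 and 10 members at an unadjusted p under 0.05 in the 5 comparisons and 6 in the interaction, where 2, 0, 1, 2, 0 and 1 stood without it. Over all tested genes the shares at that limit under the block were 10.5%, 5.3%, 10.4%, 11.9%, 7.62% and 6.65%, so the members' counts in DKO against Id2KO, in DKO against Tcf1KO and in the interaction stood above the share of all genes. The smallest adjusted p of a member under the block was 0.391, 0.983, 0.254, 0.248, 0.407 and 0.689. Genes called over the whole table went from 7 to 15 in DKO against Tcf1KO under the block and from 22, 0, 18, 15 and 0 to 22, 0, 19, 15 and 0 elsewhere. The members' median SD within groups was 0.425 under the block and 0.852 without it, against 0.324 and 0.340 over all tested genes, and replicate number held a median of 66.2% of a member's sum of squares, against 15.2% over all tested genes.

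Precision is limited by having 3 libraries a group, with a median SD within groups of 0.852 on the log2 scale (0.425 under the block), and for low members also by reads. The members with the fewest reads in a library were Ier3 (5 in Id2KO replicate 1), Atf3 (13 in Ctrl replicate 2), Egr3 (24 in Ctrl replicate 2), Gadd45b (38), Maff (42) and Hspa1b (45).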
